A study of Homo sapiens with 12 samples.

Results

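The S phase and DNA replication genes described here are 46 genes that copy DNA, prepare its origins, supply nucleotides or tend the new chromatin. They were chosen by gene symbol, with earlier results of these data known. They were found by Ensembl identifier among the 60676 genes of the count table, and all 46 were among the 20364 genes tested. PC3 cells, a long-established line, derive from a prostate cancer that had spread to bone. PC3SFRP2 cells carry the coding sequence of *SFRP2*, a secreted WNT modulator, integrated by the Sleeping Beauty transposon system, and the control PC3 cells received the empty plasmid in the same way, followed in both by selection with puromycin. The methods name 1 line of each kind and no independently made lines, so an effect of *SFRP2* and any other difference between these lines cannot be told apart. Cells were grown on cell culture polystyrene (CCP) or on the same plastic coated with rat tail collagen (COL1). RNA was harvested 5 days after 100000 cells were seeded. The 4 groups, CCP-PC3, CCP-PC3SFRP2, COL1-PC3 and COL1-PC3SFRP2, have 3 libraries each. The labels call them biological replicates without saying whether they came from separate cultures. Where they did not, the p-values reflect only how these samples scatter, and that scatter may be technical.

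A cell copies its genome once in each division. In G1 the origin recognition complex, *CDC6* and *CDT1* load the ring-shaped MCM2-7 complex onto origins, and in S phase *CDC45* and the GINS complex turn that ring into the helicase that opens the fork, where polymerases extend the new strands held by the clamp *PCNA*. Genes of this machinery are known as targets of the E2F transcription factors, and their summed transcript level is widely used as a mark of S phase cells.

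Levels are given in CPM, counts relative to the library total after TMM scaling, and differences as log2 fold changes from edgeR's quasi-likelihood test with Benjamini-Hochberg adjustment over all genes tested. A gene is called when its adjusted p is under 0.05. Libraries held 5529459 to 9975972 counts in genes. *SFRP2* itself was higher in PC3SFRP2 cells, by 9.93 on the log2 scale on CCP and 9.95 on COL1. The epithelial markers *KRT8*, *KRT18*, *KRT19*, *EPCAM* and *CDH1* were present in every library, at 80.5 to 3063 CPM. *KLK3*, which PC3 cells are known to lack, had 1 count over all 12 libraries. Of 10 markers of fibroblasts, leukocytes and endothelial cells, 8 were at most 1.33 CPM in every library, while *COL1A1* of fibroblasts was at 6.72 to 15.6 CPM and *PECAM1* of endothelial cells at 6.66 to 15.8 CPM.

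The third library of COL1-PC3SFRP2 stood apart from the others of its group, with a Pearson correlation of log2 CPM of 0.888 and 0.838 against 0.964 to 0.991 for every other pair of libraries within a group. Mitochondrial genes held 7.17% of its counts, 13.7% and 16.8% in the other libraries of that group and 19.8% to 24.0% in the remaining 9. A further deposited table has a column of the same name with other counts, and the table of a second alignment names another library in its place, so which of them is the labelled sample was not settled. Results that involve COL1-PC3SFRP2 are therefore given with and without this library and, under the name of the substituted library, with the other column in its place.

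Many of the members carry the E2F motif near their start. The choice by symbol did not use it, but genes of this machinery are known E2F targets. A high share is therefore no independent result. The E2F motif, read here as TTT, then 2 bases that are each C or G, then CGC, on either strand, was searched in windows from 250 bases before to 50 bases after each RefSeq start site of GRCh38.p14. A window was at hand for 39 of the 46 members. The motif was present for 23 of these 39 (59%), against 3.99% of all 27305 genes with a window and 5.4% of the 15843 protein-coding ones. CCAAT, which the factor NF-Y binds, was present for 27 of 39 members (69.2%, against 39.7% of all genes). The CHR motif of G2 and mitosis genes, TTTGAA or TTCGAA, was present for 3 of 39 (7.69%, against 19.5% of all genes). The sites below, shown to set members that rose beside members that fell or were not called, are those of 4 helicase subunits and of *CDT1*, *GMNN*, *UHRF1*, *PCNA* and *PCLAF*, each as 30 bases from 5′ to 3′ on the strand of the gene, with the matching bases in capitals. Where 12 bases are in capitals, the motif matches on both strands and the matches overlap. *MCM3*, *MCM6* and *MCM7* carry more than 1 site. *MCM2* has its site 3 bases after the start, on the plus strand of chromosome 3 (chr3:127598404-127598433). The sites of *MCM3* begin 174 and 4 bases before the start, on the minus strand of chromosome 6 (chr6:52284898-52284927 and chr6:52284728-52284757). Those of *MCM6* begin 152 and 90 bases before it, on the minus strand of chromosome 2 (chr2:135876575-135876604 and chr2:135876513-135876542), and those of *MCM7* 187 and 9 bases before it, on the minus strand of chromosome 7 (chr7:100101566-100101595 and chr7:100101388-100101417). *CDT1* (chr16:88803743-88803772, plus strand), *GMNN* (chr6:24775322-24775351, plus), *UHRF1* (chr19:4909476-4909505, plus), *PCNA* (chr20:5126663-5126692, minus) and *PCLAF* (chr15:64381468-64381497, minus) have 1 site each, 35, 80, 14, 59 and 45 bases before the start.
MCM2: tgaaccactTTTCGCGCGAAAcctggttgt
*MCM3* far: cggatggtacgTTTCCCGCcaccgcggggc
*MCM3* near: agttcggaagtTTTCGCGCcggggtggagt
*MCM6* far: ggctttgcaTTTGGCGCGAAAtccctttcc
*MCM6* near: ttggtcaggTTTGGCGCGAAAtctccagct
*MCM7* far: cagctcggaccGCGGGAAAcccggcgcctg
*MCM7* near: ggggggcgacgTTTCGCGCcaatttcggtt
CDT1: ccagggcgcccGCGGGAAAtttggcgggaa
GMNN: gctgggtcggtTTTGGCGCgctctcacttc
UHRF1: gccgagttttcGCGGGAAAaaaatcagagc
PCNA: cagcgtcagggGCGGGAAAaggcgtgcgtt
PCLAF: ccttggagcgcGCGGGAAAgagaccaatat
Of the members with a window, the motif was present for 7 of the 11 that were higher in COL1-PC3SFRP2 than in COL1-PC3, 7 of the 12 that were lower and 9 of the 16 that were not called. A match is a description of these letters and was not tested as a binding site.

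No member was called in the comparisons without COL1-PC3SFRP2, and in that group members moved in both directions. Between COL1-PC3SFRP2 and COL1-PC3, 13 of the 46 members rose and 13 fell (edgeR's quasi-likelihood test, adjusted p under 0.05). The share of members called, 56.5%, stood beside 35.1% of all genes tested (18.1% higher, 17.1% lower) and 58% of the 8063 genes with at least as many counts as the lowest member (27.2% higher, 30.9% lower), and so was close to that of genes counted as deeply. Between COL1-PC3SFRP2 and CCP-PC3SFRP2, 12 rose and 15 fell, or 58.7% of the members against 37.6% of all genes (19.9% higher, 17.7% lower) and 63.4% of those counted as deeply (31.2% and 32.2%). These comparisons share the libraries of COL1-PC3SFRP2. The median log2 fold change of the members was -0.21 in the first comparison and -0.17 in the second, beside 0.0055 and -0.038 over all genes. Levels are of bulk RNA, in which fewer cells in S phase and less RNA of a gene in each cell cannot be told apart.

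The summed level of the 46 members was 3304 to 3949 CPM in every library. It was 3486, 3485 and 3304 CPM in COL1-PC3SFRP2 and 3571, 3876 and 3949 CPM in COL1-PC3. The libraries of COL1-PC3SFRP2 thus held a total within or just below the range of 3442 to 3949 CPM in the other 9 libraries, made up of other proportions of the genes. Without *PCNA* and *RRM2*, the sum was 2598, 2553 and 2476 CPM in COL1-PC3SFRP2. In the other 9 libraries it was then 2366 to 2611 CPM. All 3 libraries of COL1-PC3SFRP2 lay above the other 9 for 13 members and below them for 16, which is 63% of the members. Of all genes tested 16.4% lay above, 17.2% below and 33.6% either way, and of the genes counted as deeply 25.8%, 32.2% and 58%. For the other 17 members the libraries overlapped.

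**Figure D1:**
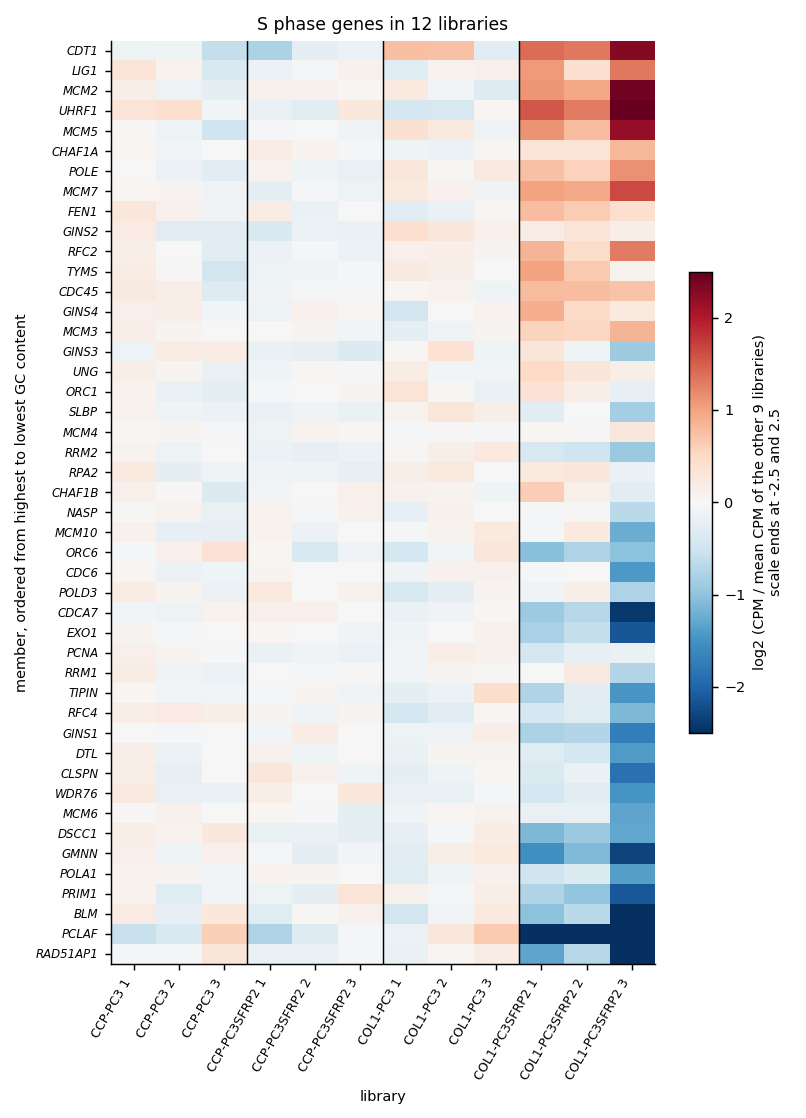
Each cell is the level of 1 of the 46 members (rows, from highest to lowest GC content of the gene) in 1 of 12 libraries (columns), as log2 of its CPM over the mean CPM of the 9 libraries outside COL1-PC3SFRP2, red for higher and blue for lower. The first 9 columns are pale, while in COL1-PC3SFRP2 13 members lie above and 16 below all other libraries, most strongly in the third library, with the higher genes near the top and the lower ones near the bottom.

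The 6 genes of the MCM2-7 ring, which encode 1 subunit each of a complex with 1 copy of each, did not move together. In COL1-PC3SFRP2, *MCM2*, *MCM5*, *MCM7* and *MCM3* rose 1.57-fold to 3.20-fold in both comparisons, while *MCM4* and *MCM6* did not pass the test. *MCM2* was at 30.6, 25.3 and 23.3 CPM in CCP-PC3, 29.5, 29.7 and 28.2 CPM in CCP-PC3SFRP2, 32.7, 26.2 and 22.1 CPM in COL1-PC3 and 59.2, 53.5 and 145.9 CPM in COL1-PC3SFRP2. Its log2 fold change was 1.68 (SE 0.32, adjusted p = 0.00153) against COL1-PC3 and 1.56 (SE 0.31, adjusted p = 0.00177) against CCP-PC3SFRP2. The libraries of COL1-PC3SFRP2 did not overlap with any other, and the third was the highest by far. *MCM5* was at 52.0, 46.6 and 36.1 CPM in CCP-PC3, 49.3, 50.5 and 47.5 CPM in CCP-PC3SFRP2, 66.2, 60.3 and 47.6 CPM in COL1-PC3 and 110.0, 87.0 and 233.4 CPM in COL1-PC3SFRP2. Its log2 fold changes were 1.30 (SE 0.29, adjusted p = 0.00384) against COL1-PC3 and 1.54 (SE 0.30, adjusted p = 0.0014) against CCP-PC3SFRP2. *MCM7* was at 107.2, 107.5 and 97.1 CPM in CCP-PC3, 88.5, 101.4 and 94.1 CPM in CCP-PC3SFRP2, 122.9, 111.8 and 97.6 CPM in COL1-PC3 and 207.3, 200.0 and 323.2 CPM in COL1-PC3SFRP2. Here the log2 fold changes were 1.14 (SE 0.20, adjusted p = 0.00105) and 1.36 (SE 0.20, adjusted p = 0.000549), in the same order. All 3 genes were highest in the third library, and the first and second alone were also above every other library.

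*MCM3* was at 87.7, 82.1 and 76.9 CPM in CCP-PC3, 77.0, 81.6 and 74.6 CPM in CCP-PC3SFRP2, 66.7, 73.0 and 81.7 CPM in COL1-PC3 and 114.4, 111.5 and 140.6 CPM in COL1-PC3SFRP2. Its log2 fold changes of 0.73 (SE 0.17, adjusted p = 0.00435) and 0.65 (SE 0.17, adjusted p = 0.00668), against COL1-PC3 and CCP-PC3SFRP2, were the smallest of the 4 subunits that rose. *MCM4* was at 127.7, 130.3 and 120.0 CPM in CCP-PC3, 113.1, 131.3 and 128.2 CPM in CCP-PC3SFRP2, 120.5, 127.3 and 120.4 CPM in COL1-PC3 and 128.8, 127.5 and 152.3 CPM in COL1-PC3SFRP2. Its libraries overlapped, and its log2 fold change against COL1-PC3 was 0.15 (SE 0.16, adjusted p = 0.491). *MCM6* was at 114.5, 120.9 and 113.1 CPM in CCP-PC3, 114.8, 109.0 and 94.3 CPM in CCP-PC3SFRP2, 104.3, 114.8 and 119.3 CPM in COL1-PC3 and 98.8, 98.0 and 44.7 CPM in COL1-PC3SFRP2. Only the third library of COL1-PC3SFRP2 lay below the other groups, and its log2 fold change was -0.48 (SE 0.24, adjusted p = 0.131) against COL1-PC3 and -0.40 (SE 0.24, adjusted p = 0.214) against CCP-PC3SFRP2. Without the third library, the log2 fold changes against COL1-PC3 were 1.08 for *MCM2*, 0.78 for *MCM5*, 0.89 for *MCM7*, 0.62 for *MCM3*, 0.071 for *MCM4* and -0.19 for *MCM6*. The 4 subunits that rose were called there too.

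Ratios of 2 genes within a library do not depend on how the libraries are scaled, and gene length drops out when they are compared between libraries. The CPM of *MCM2* divided by that of *MCM6* was 0.206 to 0.267 in CCP-PC3, 0.257 to 0.299 in CCP-PC3SFRP2, 0.185 to 0.314 in COL1-PC3 and 0.60, 0.546 and 3.26 in COL1-PC3SFRP2. The ratio of *MCM7* to *MCM6* was 0.771 to 1.18 in the 9 libraries of the other groups and 2.10, 2.04 and 7.23 in COL1-PC3SFRP2. Every library of COL1-PC3SFRP2 was thus above every other for both ratios. In the substituted library these ratios were 0.161 and 0.843, within or below the range of the other groups. The ratios are given as measured, with no test of their own. They were not corrected for GC content, which was 58.3% for *MCM2*, 55.0% for *MCM7* and 42.9% for *MCM6*. A difference between libraries that follows GC content would therefore enter them.

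**Figure D2:**
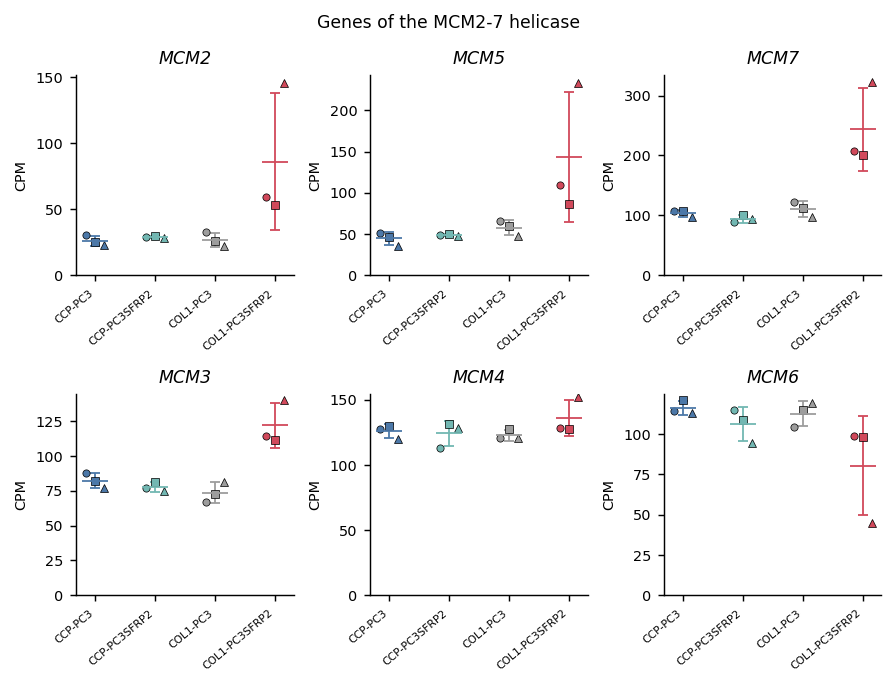
The level in CPM (vertical axes, from 0) of the 6 helicase genes in each group (horizontal axes), with 1 point for each library (circle, square and triangle for replicates 1, 2 and 3), a bar at the mean and error bars of 1 SD (n = 3). MCM2, MCM5, MCM7 and MCM3 lie above all other libraries in COL1-PC3SFRP2, MCM4 overlaps with them, and MCM6 is lower only in the third library, at 44.7 CPM.

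Of the 5 genes of origin licensing, the loader *CDT1* rose while its inhibitor *GMNN* (geminin) and the origin recognition subunit *ORC6* fell. *CDT1* was at 19.6, 19.8 and 14.1 CPM in CCP-PC3, 12.4, 18.0 and 19.4 CPM in CCP-PC3SFRP2, 35.9, 35.5 and 17.8 CPM in COL1-PC3 and 56.2, 53.4 and 105.4 CPM in COL1-PC3SFRP2. Its log2 fold change was 1.27 (SE 0.31, adjusted p = 0.00585) against COL1-PC3 and 2.11 (SE 0.32, adjusted p = 0.0006) against CCP-PC3SFRP2. COL1-PC3SFRP2 lay above all other libraries, and of the remaining groups COL1-PC3 had the highest of the rest in its first and second libraries. *GMNN* was at 93.2, 78.9 and 93.2 CPM in CCP-PC3, 81.5, 72.2 and 80.7 CPM in CCP-PC3SFRP2, 70.6, 93.3 and 100.2 CPM in COL1-PC3 and 29.2, 39.3 and 17.0 CPM in COL1-PC3SFRP2. It fell by 1.62 on the log2 scale against COL1-PC3 (SE 0.25, adjusted p = 0.000676) and by 1.45 against CCP-PC3SFRP2 (adjusted p = 0.000891). Its highest library in COL1-PC3SFRP2, at 39.3 CPM, was below the lowest elsewhere, at 70.6 CPM. The CPM of *CDT1* divided by that of *GMNN* was 0.151 to 0.508 in the 9 libraries of the other groups and 1.92, 1.36 and 6.21 in COL1-PC3SFRP2. It was 0.154 in the substituted library. This ratio was not corrected for GC content, which was 65.5% for *CDT1* and 41.4% for *GMNN*. Without the third library the log2 fold changes against COL1-PC3 were 0.91 for *CDT1* and -1.35 for *GMNN*.

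*ORC6* had a log2 fold change of -0.90 (SE 0.22, adjusted p = 0.00644) against COL1-PC3 and -0.81 (SE 0.22, adjusted p = 0.00971) against CCP-PC3SFRP2, with 15.6, 19.0 and 15.8 CPM in COL1-PC3SFRP2 and 23.6 to 41.2 CPM elsewhere. *ORC1*, the largest subunit of the same complex, was not called against COL1-PC3 (0.056, SE 0.20, adjusted p = 0.862). *CDC6*, the ATPase that recruits *CDT1* to origins, was at 92.0, 95.3 and 35.1 CPM in COL1-PC3SFRP2 against 85.7 to 101.9 CPM in the other groups, and its log2 fold change of -0.40 (SE 0.27, adjusted p = 0.273) rested on the third library, without which it was -0.057.

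Among the 6 genes that turn the loaded ring into an active helicase, *CDC45* rose with little spread. It was at 22.5, 21.6 and 15.5 CPM in CCP-PC3, 18.1, 18.9 and 18.9 CPM in CCP-PC3SFRP2, 19.9, 20.4 and 17.9 CPM in COL1-PC3 and 33.2, 32.9 and 31.7 CPM in COL1-PC3SFRP2, with a log2 fold change of 0.75 (SE 0.19, adjusted p = 0.00708) against COL1-PC3 and 0.81 (SE 0.19, adjusted p = 0.004) against CCP-PC3SFRP2. The 4 genes of the GINS complex, like those of the MCM ring, split. *GINS4* rose against COL1-PC3, with a log2 fold change of 0.67 (SE 0.21, adjusted p = 0.0241), and not against CCP-PC3SFRP2, with 0.55 (SE 0.21, adjusted p = 0.0525). *GINS1* fell in both comparisons, by 1.00 on the log2 scale (adjusted p = 0.00429) and by 1.05 (adjusted p = 0.00273). *GINS2* and *GINS3* were not called, with log2 fold changes against COL1-PC3 of -0.056 and -0.25. *MCM10*, a factor of helicase activation, was not called either (-0.32, SE 0.28, adjusted p = 0.397). Its libraries in COL1-PC3SFRP2 held 28.6, 35.0 and 12.6 CPM, the third well under all others.

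Of the catalytic subunits of the polymerases, *POLE* rose in both comparisons and *POLA1* fell in 1. *POLE*, of the leading strand polymerase, was at 23.8, 21.4 and 19.9 CPM in CCP-PC3, 25.4, 22.0 and 20.9 CPM in CCP-PC3SFRP2, 29.0, 24.3 and 27.6 CPM in COL1-PC3 and 39.8, 35.5 and 52.9 CPM in COL1-PC3SFRP2, and its log2 fold change was 0.66 (SE 0.20, adjusted p = 0.0169) against COL1-PC3 and 0.91 (SE 0.20, adjusted p = 0.00268) against CCP-PC3SFRP2. *POLA1*, of the polymerase that starts each fragment, was at 51.4, 51.1 and 46.5 CPM in CCP-PC3, 51.4, 51.0 and 48.6 CPM in CCP-PC3SFRP2, 39.6, 45.0 and 52.4 CPM in COL1-PC3 and 34.6, 38.4 and 18.8 CPM in COL1-PC3SFRP2, with log2 fold changes of -0.58 (SE 0.23, adjusted p = 0.0626) and -0.71 (SE 0.23, adjusted p = 0.0223), the second of them a call. The CPM of *POLE* divided by that of *POLA1* was 0.418 to 0.732 in the other 9 libraries and 1.15, 0.924 and 2.82 in COL1-PC3SFRP2. GC content, for which this ratio was not corrected, was 55.8% for *POLE* and 41.2% for *POLA1*. *PRIM1*, the primase subunit that works with *POLA1*, fell by 2.36-fold against COL1-PC3 (log2 fold change -1.24, SE 0.28, adjusted p = 0.00424). It was not called in the second alignment (-0.46) or with the GC correction (-0.26). *POLD3*, a subunit of the lagging strand polymerase, was not called (0.0043, SE 0.23, adjusted p = 0.992).

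*PCNA*, the sliding clamp, was not called, although its lowest libraries were those of COL1-PC3SFRP2. It was at 611.0, 582.6 and 539.1 CPM in CCP-PC3, 499.9, 524.3 and 504.5 CPM in CCP-PC3SFRP2, 531.2, 622.3 and 602.2 CPM in COL1-PC3 and 410.7, 481.9 and 496.3 CPM in COL1-PC3SFRP2. The 3 libraries of COL1-PC3SFRP2 were the lowest of the 12, and the log2 fold change was -0.34 (SE 0.15, adjusted p = 0.0949) against COL1-PC3 and -0.14 (SE 0.15, adjusted p = 0.51) against CCP-PC3SFRP2. Without the third library the first was called, with a log2 fold change of -0.38. *RFC2*, a subunit of the loader that opens the clamp, rose with log2 fold changes of 0.78 (SE 0.20, adjusted p = 0.00824) against COL1-PC3 and 1.01 (SE 0.20, adjusted p = 0.00182) against CCP-PC3SFRP2. *RFC4*, of the same loader, was not called against COL1-PC3 (-0.37, SE 0.21, adjusted p = 0.195) and fell against CCP-PC3SFRP2 (-0.59, SE 0.21, adjusted p = 0.0386). *DSCC1*, of an alternative loader, fell in both, with 25.1, 28.9 and 22.4 CPM in COL1-PC3SFRP2 and 47.0 to 65.4 CPM elsewhere and a log2 fold change against COL1-PC3 of -1.09 (SE 0.18, adjusted p = 0.000777). *DTL*, which directs the degradation of proteins bound to the clamp, *CDT1* among them, fell just past the threshold against COL1-PC3 (-0.63, SE 0.24, adjusted p = 0.0482).

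*PCLAF*, a small protein that binds *PCNA*, had the largest change of the 46 members in both comparisons with COL1-PC3SFRP2. It is encoded on the minus strand of chromosome 15 of GRCh38 from 64364304 to 64387687 (ENSG00000166803). Its counts were 542, 462 and 939 in CCP-PC3, 421, 505 and 662 in CCP-PC3SFRP2, 392, 619 and 1150 in COL1-PC3 and 31, 42 and 23 in COL1-PC3SFRP2. As levels these were 55.2, 62.1 and 121.6 CPM in CCP-PC3, 47.5, 64.9 and 77.8 CPM in CCP-PC3SFRP2, 72.9, 97.8 and 127.6 CPM in COL1-PC3 and 4.90, 6.42 and 4.59 CPM in COL1-PC3SFRP2. COL1-PC3SFRP2 did not overlap with the other groups, and within the other groups the third library was the highest each time. Its log2 fold change was -4.22 (SE 0.35, adjusted p = 1.22e-05) against COL1-PC3, a 18.6-fold fall, and -3.57 (SE 0.35, adjusted p = 0.000136) against CCP-PC3SFRP2. Divided by the CPM of *PCNA*, that of *PCLAF* was 0.0904 to 0.226 in the other 9 libraries and 0.0119, 0.0133 and 0.00925 in COL1-PC3SFRP2. The third library of COL1-PC3SFRP2 was close to the first and second, and without it the log2 fold change was -4.12 against COL1-PC3 and -3.48 against CCP-PC3SFRP2.

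In the second alignment *PCLAF* had far fewer counts in the other groups and a smaller fall. That table holds 11 of the 12 libraries and lacks the third of COL1-PC3SFRP2. *PCLAF* had 136, 109 and 183 counts there in CCP-PC3, 122, 93 and 109 in CCP-PC3SFRP2, 73, 63 and 133 in COL1-PC3 and 27 and 39 in COL1-PC3SFRP2. Over the 11 libraries these were 18.9% of its counts in the first alignment, while in the first and second libraries of COL1-PC3SFRP2 the counts had been 31 and 42 and so changed little. The log2 fold change was -1.31 against COL1-PC3 (adjusted p = 0.000148) and -1.32 against CCP-PC3SFRP2 (adjusted p = 0.0001), and over the 21 alternatives tried the adjusted p of *PCLAF* ran from 1.39e-48 to 0.158 and from 2.37e-36 to 0.308, the highest with the substituted library. The gene ENSG00000259316, which overlaps *PCLAF* on the same strand, had 3 counts over the 12 libraries and 1 in the second alignment, so the counts missing there were not moved to it. For 41 of the 46 members the second alignment held 95.3% to 103.9% of the counts of the first. The others were *PRIM1* (52.1%), *FEN1* (65.9%), *RRM2* (81.0%) and *UHRF1* (139.4%). Of the 46 members, 31 overlap another annotated gene, 13 of them on the same strand, *PCLAF*, *PRIM1* and *FEN1* included. Whether the counting used strand is not given in the sources used here, and why the alignments differ was not tested.

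**Figure D3:**
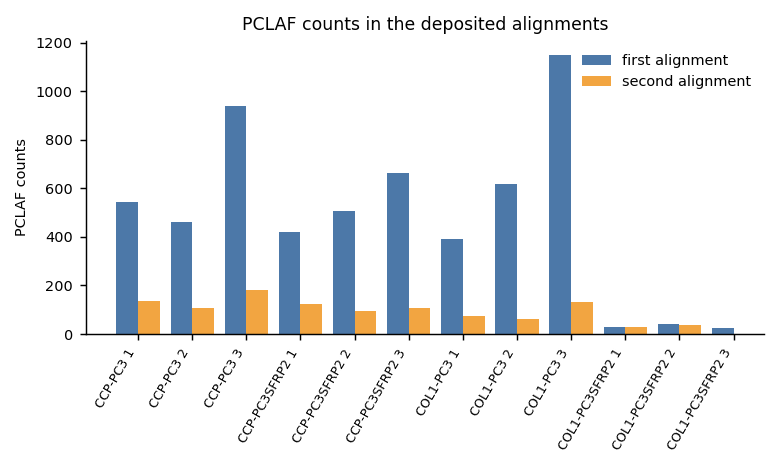
Counts of PCLAF (vertical axis, from 0) in each library (horizontal axis), in the first alignment (blue) and in the second (orange), which holds no value for the third library of COL1-PC3SFRP2. In the 9 libraries outside COL1-PC3SFRP2 the first alignment gives 392 to 1150 counts and the second 63 to 183, while COL1-PC3SFRP2 has 23 to 42 and 27 to 39.

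Both genes that join the fragments of the lagging strand rose. *FEN1*, the nuclease that trims them, was at 91.0, 82.3 and 69.7 CPM in COL1-PC3SFRP2 and 43.3 to 64.1 CPM elsewhere. Its log2 fold change was 0.73 (SE 0.19, adjusted p = 0.00731) against COL1-PC3 and 0.60 (SE 0.19, adjusted p = 0.0183) against CCP-PC3SFRP2. *LIG1*, the ligase that seals them, was at 28.8, 18.0 and 34.3 CPM in COL1-PC3SFRP2 and 10.5 to 17.1 CPM elsewhere, with log2 fold changes of 0.99 (SE 0.26, adjusted p = 0.0086) and 1.00 (SE 0.26, adjusted p = 0.00656). *FEN1* was also the 1 member called with the substituted library, with a log2 fold change of 0.79 against COL1-PC3.

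Of the genes of nucleotide supply, the subunits of ribonucleotide reductase, which makes deoxyribonucleotides, differed in size of change. *RRM2*, its small subunit, was at 677.6, 579.3 and 638.0 CPM in CCP-PC3, 576.1, 552.3 and 573.3 CPM in CCP-PC3SFRP2, 648.9, 705.5 and 749.6 CPM in COL1-PC3 and 477.2, 450.3 and 331.4 CPM in COL1-PC3SFRP2. It fell against COL1-PC3 (-0.74, SE 0.17, adjusted p = 0.00373) and just missed the threshold against CCP-PC3SFRP2 (-0.43, SE 0.17, adjusted p = 0.0503). All 3 libraries of COL1-PC3SFRP2 were below the other 9. *RRM1*, the large subunit, was at 220.9, 183.7 and 176.6 CPM in CCP-PC3, 194.2, 191.9 and 197.9 CPM in CCP-PC3SFRP2, 186.1, 202.8 and 198.4 CPM in COL1-PC3 and 195.3, 226.7 and 117.0 CPM in COL1-PC3SFRP2. Its groups overlapped, and its log2 fold change against COL1-PC3 was -0.12 (SE 0.21, adjusted p = 0.689). *TYMS*, the enzyme that makes thymidylate, was at 28.1, 25.1 and 18.0 CPM in CCP-PC3, 22.6, 23.0 and 24.2 CPM in CCP-PC3SFRP2, 28.6, 27.2 and 25.0 CPM in COL1-PC3 and 49.8, 39.0 and 26.4 CPM in COL1-PC3SFRP2. It was called against CCP-PC3SFRP2 (0.72, SE 0.23, adjusted p = 0.0227) and not against COL1-PC3 (0.52, SE 0.23, adjusted p = 0.0987), and the third library of COL1-PC3SFRP2 lay among those of the other groups. Without the third library it was called in both, at 0.73 and 0.93.

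*UHRF1*, which reads half-methylated DNA behind the fork and brings in the maintenance methyltransferase, rose most of all members against COL1-PC3. It was at 11.3, 11.96 and 8.54 CPM in CCP-PC3, 7.90, 7.46 and 10.8 CPM in CCP-PC3SFRP2, 6.69, 6.79 and 9.21 CPM in COL1-PC3 and 26.2, 22.0 and 50.9 CPM in COL1-PC3SFRP2. The log2 fold change was 2.11 (SE 0.31, adjusted p = 0.00052) against COL1-PC3, a 4.30-fold rise, and 1.91 (SE 0.30, adjusted p = 0.000659) against CCP-PC3SFRP2. All 3 libraries of COL1-PC3SFRP2 were above the others, and without the third the log2 fold changes were 1.66 and 1.46. *CHAF1A*, of the chaperone CAF-1 that loads new histones, rose against COL1-PC3 (0.59, SE 0.19, adjusted p = 0.0258) and not against CCP-PC3SFRP2 (0.44, SE 0.19, adjusted p = 0.0799), while *CHAF1B* of the same chaperone was not called against COL1-PC3 (0.18, SE 0.22, adjusted p = 0.567). *CDCA7*, a partner of the chromatin remodeller HELLS, fell with -1.10 (SE 0.29, adjusted p = 0.0098) and -1.25 (SE 0.29, adjusted p = 0.00407). The histone chaperone *NASP* and *SLBP*, which binds histone transcripts, were not called, with log2 fold changes of -0.16 and -0.51 against COL1-PC3. *WDR76* was called against CCP-PC3SFRP2 (-0.79, SE 0.25, adjusted p = 0.0215) and not against COL1-PC3 (-0.51, SE 0.25, adjusted p = 0.133).

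Of the 7 genes of fork protection and repair, 0 rose and 4 fell in each comparison with COL1-PC3SFRP2. Against COL1-PC3, 18.1% of all genes rose and 17.1% fell (27.2% and 30.9% of those counted as deeply). Against CCP-PC3SFRP2 these shares were 19.9% and 17.7% (31.2% and 32.2%). The 4 genes had a GC content of 38.5% to 44.5%, and with the GC correction *EXO1* alone of them was called in either comparison. *RAD51AP1*, which acts in homologous recombination, was at 60.6, 59.7 and 76.2 CPM in CCP-PC3, 54.4, 55.0 and 59.4 CPM in CCP-PC3SFRP2, 55.2, 63.8 and 69.9 CPM in COL1-PC3 and 24.8, 37.6 and 5.39 CPM in COL1-PC3SFRP2. It fell by 1.47 on the log2 scale against COL1-PC3 (adjusted p = 0.0115) and by 1.30 against CCP-PC3SFRP2 (adjusted p = 0.0187). The third library of COL1-PC3SFRP2 was far below the first and second, which alone were also under all other groups (-1.01 and -0.85 without the third). *BLM*, a helicase of the RecQ family, fell with -1.21 (SE 0.39, adjusted p = 0.0261) against COL1-PC3, *EXO1*, a nuclease of mismatch repair and end resection, with -1.03 (SE 0.28, adjusted p = 0.00968), and *TIPIN*, of the fork protection complex, with -0.79 (SE 0.27, adjusted p = 0.0309). Against CCP-PC3SFRP2 the call of *TIPIN* held in 8 of the 21 alternatives. The checkpoint adaptor *CLSPN*, with -0.52 (SE 0.30, adjusted p = 0.205), and the single-strand binding subunit *RPA2*, with -0.002 (SE 0.19, adjusted p = 0.996), were not called, nor was *UNG*, which removes uracil from DNA, with 0.31 (SE 0.17, adjusted p = 0.185).

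**Figure D4:**
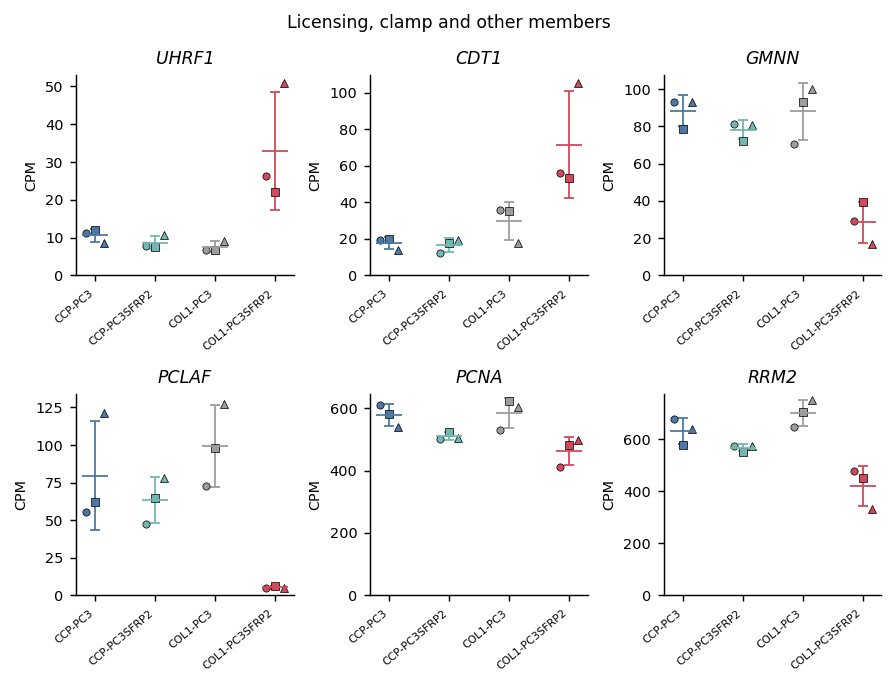
The level in CPM (vertical axes, from 0) of 6 further members in each group (horizontal axes), with 1 point for each library (circle, square and triangle for replicates 1, 2 and 3), a bar at the mean and error bars of 1 SD (n = 3). UHRF1 and CDT1 are above, and GMNN, PCLAF, PCNA and RRM2 below, all other libraries in COL1-PC3SFRP2, with PCLAF at 4.59 to 6.42 CPM.

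No member was called between CCP-PC3SFRP2 and CCP-PC3 by edgeR's quasi-likelihood test or DESeq2, where 0.0786% and 0.481% of all genes were called (0.124% of those counted as deeply by edgeR). At an unadjusted p under 0.05, edgeR gave 0 members (4.92% of all genes) and DESeq2 1 (4.43%). The log2 fold changes were at most 0.36 in size, with a median of -0.057. No member was called between COL1-PC3 and CCP-PC3 by either tool, where 0% and 0.0295% of all genes were called. At an unadjusted p under 0.05, edgeR gave 1 member there (3.88% of all genes) and DESeq2 2 (3.4%). The log2 fold changes were at most 0.73 in size, that of *CDT1* (0.73, SE 0.31, adjusted p = 1), with a median of -0.0048.

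Whether the difference between PC3SFRP2 and PC3 was unlike on both surfaces was tested as an interaction, the log2 fold change on COL1 minus that on CCP. It passed for 5 members, 3 more positive on COL1 and 2 more negative, or 10.9% of the members against 6.32% of all genes (3.79% more positive, 2.53% more negative) and 11.5% of those counted as deeply (6.92% and 4.6%). *UHRF1* had an interaction of 2.39 (SE 0.43, adjusted p = 0.0253), *MCM7* one of 1.27 (SE 0.28, adjusted p = 0.0328) and *MCM2* one of 1.53 (SE 0.44, adjusted p = 0.0499). *GMNN* had one of -1.44 (SE 0.35, adjusted p = 0.0376) and *PCLAF* one of -3.89 (SE 0.45, adjusted p = 0.00261). *MCM2* was at the threshold. With the GC correction the interactions of *MCM2* (0.61) and *GMNN* (-0.58) were not called. The number called moved with nearly every choice: leaving out 1 library of CCP-PC3 or CCP-PC3SFRP2, or library 2 or 3 of COL1-PC3, gave 1 or 2 calls (0.00995% to 0.459% of all genes). Leaving out the second library of COL1-PC3SFRP2 gave 20 (27.5% of all genes and 49.8% of those counted as deeply). Without the third there were 21 (20.1% and 39.9%), and DESeq2 gave 18 (19.3% and 36.4%).

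The direction in which a member moved in COL1-PC3SFRP2 went along with the GC content of its gene. The 13 members that rose against COL1-PC3 had a median GC content of 55.8% (51.6% to 65.5%), and the 13 that fell one of 43.7% (38.5% to 48.9%), so that these ranges did not overlap. Over the 46 members the Spearman correlation of the log2 fold change with GC content was 0.897 against COL1-PC3 and 0.922 against CCP-PC3SFRP2, a description over genes that share libraries. Over the 10869 genes with a mean log2 CPM above 2 and a GC value it was 0.824 and 0.853. The genes named above lay at different places along it: *MCM2*, *MCM5* and *MCM7* at a GC content of 58.3%, 57.5% and 55.0%, *MCM4* and *MCM6* at 49.6% and 42.9%, *CDT1* at 65.5% and *GMNN* at 41.4%.

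With each library corrected for GC content and gene length, 10 members rose and 7 fell against COL1-PC3 (37% of the members, against 18.3% of all genes and 34.3% of those counted as deeply), and 12 rose and 5 fell against CCP-PC3SFRP2 (also 37%, against 16.8% and 32.5%). Against COL1-PC3, 12 of the 26 calls held, 14 were lost and 5 members were newly called. Those that held were *UHRF1* (1.15), *MCM2* (0.77), *CDC45* (0.56), *MCM7* (0.54), *MCM5* (0.48), *MCM3* (0.48) and *RFC2* (0.44) among the higher members, and *PCLAF* (-3.12), *GMNN* (-0.64), *RRM2* (-0.62), *CDCA7* (-0.61) and *EXO1* (-0.45) among the lower ones. *MCM6* turned from a log2 fold change of -0.48 to 0.32 against COL1-PC3 and to a call of 0.40 against CCP-PC3SFRP2, so that all 6 helicase genes then had values above 0. *RRM1* also turned, to 0.52. Of the higher members, the calls of *CDT1* (0.13), *LIG1* (0.066), *FEN1* (0.27), *GINS4* (0.48), *POLE* (-0.0024) and *CHAF1A* (-0.14) were lost. Of the lower ones, those of *RAD51AP1* (-0.29), *PRIM1* (-0.26), *GINS1* (-0.35), *DSCC1* (-0.21), *ORC6* (-0.38), *BLM* (-0.23), *TIPIN* (-0.15) and *DTL* (0.048) were lost. Against CCP-PC3SFRP2, 12 of the 27 calls held, 15 were lost and 5 were new. Over the 21 alternatives tried, the call against COL1-PC3 held in 6 for *DTL*, 12 for *CHAF1A*, 14 for *TIPIN* and *BLM* and 15 for *GINS4* and *POLE*, and in 20 for *MCM2*, *MCM3*, *MCM7*, *UHRF1*, *GMNN* and *PCLAF*, the exception being the substituted library. The correction takes out any real change that goes along with GC content too, and a change of the cells and a change of the libraries that both follow GC content cannot be told apart here.

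**Figure D5:**
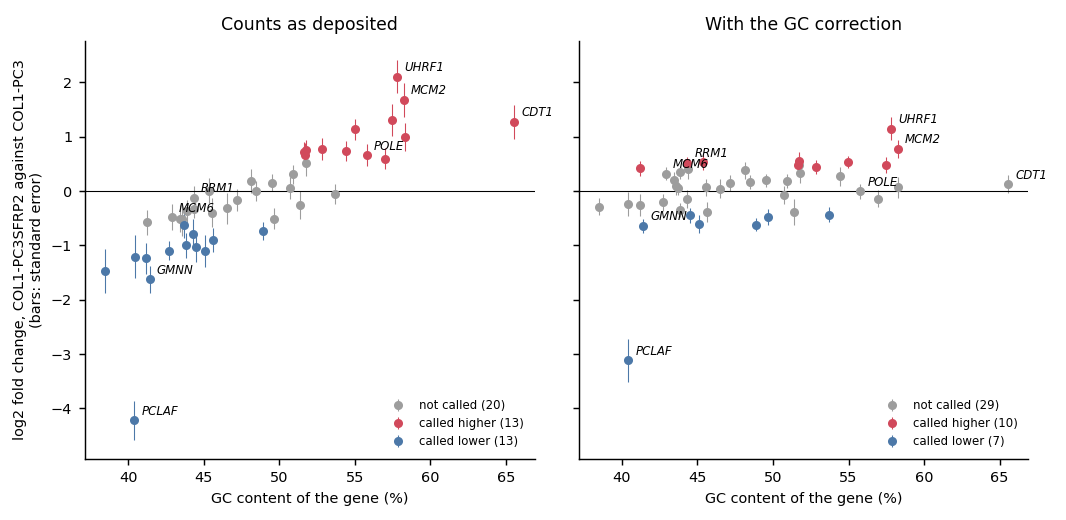
The log2 fold change of each of the 46 members between COL1-PC3SFRP2 and COL1-PC3 (vertical axis, bars of 1 standard error) against the GC content of its gene in percent (horizontal axis), from the counts as deposited (left) and with each library corrected for GC content and gene length (right), colored by call. On the left the members rise from PCLAF at -4.22 to UHRF1 at 2.11 along GC content, and on the right most lie near 0 while PCLAF remains at -3.12 and UHRF1 at 1.15.

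With the substituted library in place of the third library of COL1-PC3SFRP2, hardly any call remained. Against COL1-PC3, *FEN1* alone was called of the 46 members (1.09% of all genes were called), with 11 members at an unadjusted p under 0.05 (18.9% of all genes). Against CCP-PC3SFRP2 edgeR's quasi-likelihood test called 0 members (0.0196% of all genes), with 14 at an unadjusted p under 0.05 (19.9%). The substituted library held 71.4 CPM of *PCLAF*, 8.87 of *UHRF1*, 15.4 of *CDT1*, 99.5 of *GMNN*, 21.3 of *MCM2* and 132.4 of *MCM6*. Of these, *PCLAF*, *UHRF1*, *CDT1* and *GMNN* lay within the range of the 9 libraries outside COL1-PC3SFRP2, *MCM2* just below and *MCM6* just above it, and far from the first and second library of the group. With the third library as deposited 26 and 27 members were called in these comparisons, and with the substituted one 1 and 0. With no library in its place there were 29 and 31 (34.5% and 36.8% of all genes, and 60.5% and 66.3% of those counted as deeply).

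Beyond the members, 25 other genes of the fork and its polymerases gave 7 higher and 9 lower calls between COL1-PC3SFRP2 and COL1-PC3, with a median log2 fold change of -0.025. Beside the counts of this and the next lists stand 18.1% higher and 17.1% lower of all genes tested, and 27.2% and 30.9% of those counted as deeply as the lowest member. *CHTF18*, of the alternative clamp loader, was among the former (2.02, adjusted p = 0.000706) and *DNA2*, a nuclease and helicase, among the latter (-1.90, adjusted p = 0.00722). Against CCP-PC3SFRP2, *CHTF8* of the same loader was called at 3.17 (adjusted p = 0.043), on group means of 0.0788 to 1.25 CPM. Of 16 other licensing and firing genes, 1 rose and 8 fell (median -0.85), with *ORC4*, a subunit of the origin recognition complex, at -1.73 (adjusted p = 0.00585) and *MTBP*, a factor of origin firing, at -1.53 (adjusted p = 0.00552). Of 11 other nucleotide supply genes, 3 rose and 4 fell (median 0.18). *TYMP*, which breaks down thymidine, had 2.39 (adjusted p = 0.00126) and *RRM2B*, a further small subunit of ribonucleotide reductase, -1.80 (adjusted p = 0.00158). Against CCP-PC3SFRP2 the salvage kinase *TK1* rose by 1.65 on the log2 scale (adjusted p = 0.000507). The named genes of these 3 lists that rose had a GC content of 56.1% to 68.2%, and those that fell one of 38.0% to 42.7%.

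Of 22 genes of E2F factors, pocket proteins and cyclins E and A, 3 rose and 5 fell (median -0.37), with *LIN37* of the DREAM complex at 2.95 (adjusted p = 0.0142) and *RB1*, the retinoblastoma gene, at -1.88 (adjusted p = 0.00119). *LIN37* had group means of 0.344 to 2.51 CPM and is a low gene here. GC content was 59.9% for *LIN37* and 42.3% for *RB1*. Of 40 G2 and mitosis genes tested, 3 rose and 24 fell (median -0.90), beside 18.1% and 17.1% of all genes and 27.2% and 30.9% of those counted as deeply. Among the 24 were the motor gene *CENPE* at -1.96 (adjusted p = 0.00532) and the spindle gene *HMMR* at -1.89 (adjusted p = 0.00153), with a GC content of 33.9% and 38.2%. Against CCP-PC3SFRP2, 7 of these 40 rose and 20 fell (19.9% and 17.7% of all genes), and the mitotic kinase *PLK1* rose by 1.66 on the log2 scale (adjusted p = 0.00161). With the GC correction 1 rose and 7 fell against COL1-PC3 (median -0.12), where 18.3% of all genes and 34.3% of those counted as deeply were called. With the substituted library 0 rose and 1 fell, where these shares were 1.09% and 2.13%.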

How the data were processed

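RNA of PC3 cells was made into 12 libraries with the Lexogen SENSE kit and sequenced. Per the authors, reads were mapped to GRCh38 by STAR, and the deposited values are raw counts of each gene without normalization. A further deposited table holds counts of a second alignment of 11 of these libraries. The columns of the authors' own comparisons (fold changes and p-values), and 56 further columns of per-sample values, were not used.

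Genes whose 12 libraries together held 10 counts or more entered the analysis. They were scaled by TMM and fitted as 4 groups with edgeR's quasi-likelihood test (edgeR 4.0.16, R 4.3.3, robust), with p-values adjusted over all genes by the Benjamini-Hochberg method and called under 0.05. The fit was tested on simulated data. CPM values are scaled by the TMM library sizes. The alternatives were DESeq2 1.42.0, median-of-ratios size factors, no filter, the replicate number as a block, an offset per library and gene from GC content and length (GC correction, splines with 5 and 3 degrees of freedom), the second alignment, the substituted library and leaving out each library. GC content, gene length, overlaps and gene coordinates came from GENCODE on GRCh38, and 84 of the genes tested (99.6% had one) had no GC value. Promoter windows are of RefSeq, GRCh38.p14. A planned search of the protein sequences was not run.

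The members and gene lists were chosen with earlier results of these data known. By rule, values of every library were given for *PCLAF*, the MCM2-7 genes, *PCNA*, *RRM1*, *RRM2*, *TYMS* and the 3 called members that changed most in each direction of a comparison, and of each further list the 2 called genes with the largest change were named in each comparison with COL1-PC3SFRP2. *CDC45*, *POLE* and *POLA1* were added after their values were seen. Deviations from the group mean correlated at -0.547 to 0.506 between libraries with the same replicate number, and at -0.606 to 0.593 between those with other numbers. These values do not settle whether the numbers pair the samples, and the main fit used no pairing.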

Additional observations from a re-analysis of the deposited data

Results flagged for a closer look

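For 5 members the difference between PC3SFRP2 and PC3 cells was not the same on both surfaces, by edgeR's test of the interaction (the log2 fold change on COL1 minus that on CCP). The interaction was 2.39 for *UHRF1*, 1.53 for *MCM2* and 1.27 for *MCM7*, and it was -3.89 for *PCLAF* and -1.44 for *GMNN*. The call held in 12 of the 21 alternatives for *UHRF1*, 11 for *MCM7*, 6 for *MCM2*, 19 for *PCLAF* and 9 for *GMNN*, and the GC correction ended that of *MCM2* (0.61) and *GMNN* (-0.58). For each of the 5 the libraries of COL1-PC3SFRP2 lay apart from the other 9, as they did for 63% of the members. The same held for 33.6% of all genes and 58% of those counted as deeply. The 5 were picked by a test on these same libraries, so this adds no separate support. In the second alignment the interaction of *PCLAF* was -0.87 and not called (adjusted p = 0.059, beside a range of 5.95e-25 to 0.757 over the 21 alternatives). With the substituted library none of the 5 was called by edgeR's quasi-likelihood test, where 0 of 20404 genes were called.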

How the results depend on the processing

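The counts of members called were 26 against COL1-PC3, 27 against CCP-PC3SFRP2 and 5 for the interaction. They were 17, 17 and 3 with the GC correction, and 1, 0 and 0 with the substituted library. For the interaction, the GC correction called 720 of 20280 genes, and 7.46% of those counted as deeply. With the substituted library 0 of 20404 genes were called for it. The interaction count was 18 by DESeq2, 13 with no filter on low counts and 19 in the second alignment (19.3%, 11.2% and 20.8% of all genes). Of the genes counted as deeply, 36.4%, 33.4% and 39.6% were called there. With each library left out in turn the counts ran from 21 to 30, from 18 to 31 and from 1 to 21. Over all genes the calls in these fits ran from 4401 to 8296, from 5747 to 8768 and from 2 to 5515. Of the genes counted as deeply, 37.6% to 68%, 50.2% to 72.2% and 0.0124% to 49.8% were called. In both comparisons without COL1-PC3SFRP2, 0 members were called under every alternative. Of the genes counted as deeply, 0.0372% to 8.52% were called there between CCP-PC3SFRP2 and CCP-PC3. Between COL1-PC3 and CCP-PC3 it was 0% to 3.81%. The highest share of each came with the GC correction and the third library of COL1-PC3SFRP2 left out. The replicate block gave 23, 24 and 1 calls (30.3%, 33.9% and 0.00982% of all genes, and 51.3%, 58.6% and 0.0124% of those counted as deeply). Whether the numbers pair the samples was not settled. Chosen after seeing the data was a GC correction in one fit with that block (17, 15 and 3 calls, 16.8%, 15.1% and 2.76% of all genes), and one with the third library of COL1-PC3SFRP2 left out (25, 23 and 12, 22.1%, 19.4% and 9.2%). Of the genes counted as deeply, the former called 32%, 29.5% and 5.87% and the latter 42%, 38.3% and 19.4%.

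Signs of values called before or after turned only with a GC correction. Against COL1-PC3, the log2 fold changes with the GC correction, the same with the replicate block and the same without the third library were 0.52, 0.52 and 0.54 for *RRM1*, 0.048, 0.035 and 0.11 for *DTL*, and -0.14, -0.13 and -0.10 for *CHAF1A*. *POLE* turned with the first pair of these (-0.0024 and -0.0021) and *MCM6* turned to a call with the last (0.35). Against CCP-PC3SFRP2, in the same order, they were 0.40, 0.40 and 0.43 for *MCM6*, 0.50, 0.50 and 0.52 for *RRM1*, 0.091, 0.083 and 0.15 for *DTL*, 0.098, 0.10 and 0.062 for *RFC4*, and 0.33, 0.33 and 0.25 for *POLA1*. *PCNA* turned with the first (0.62) and the last (0.24), and *RAD51AP1* (0.041) and *WDR76* (0.016) in the last alone. The interaction of *RRM1* turned in the last (0.44). The cause was not tested. The depth of 5529459 to 9975972 counts a library, 3 libraries a group and the unsettled identity of 1 library limit these results.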
